A study of Mus musculus with 9 samples.

Results

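The Tie receptors and the angiopoietin system are described here through 6 genes, picked by name from the 52636 rows of a raw count table. They are the receptor genes Tek (which encodes Tie2) and Tie1, the ligand genes Angpt1 and Angpt2, the phosphatase gene Ptprb (VE-PTP), and the angiopoietin-like gene Angptl4. All 6 were found in the table, and 5 of them held enough reads to be tested. Messenger RNA was sequenced from liver endothelium of mice. A VE-cadherin antibody was given to the live animals, and viable CD31+ cells that carried it and lacked the leukocyte marker CD45 were sorted. The groups were 5 libraries labelled as a double knockout of Erg and Fli1 and 4 control libraries labelled wild type. Cells of both groups were taken at day 7 after tamoxifen, which the labels give as the treatment of every sample. The sources used here do not give the Cre driver, the deleted exons or the age of the mice.

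Tie2 is a receptor tyrosine kinase of endothelial cells. Angpt1, made mainly by cells around vessels and by platelets, activates it, and signalling through AKT then holds the transcription factor FOXO1 out of the nucleus and keeps vessels quiescent. Angpt2, which endothelial cells make themselves and store in Weibel-Palade bodies, can block or weakly activate the receptor, and FOXO1 drives its transcription. Tie1 binds no angiopoietin strongly by itself but forms complexes with Tie2, and VE-PTP removes phosphates from Tie2. Angptl4 has an angiopoietin-like fold but does not bind Tie2. It inhibits lipoprotein lipase and is induced by PPAR factors and by hypoxia.

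Promoter sequences are shown because both receptor genes fell and both targeted factors are ETS proteins, which bind a GGAA core. Of the 6 genes, 2 had an entry in the RefSeq promoter table (build GRCm38.p6). Each line gives the 250 bases before the RefSeq start, 5′ to 3′ on the gene's strand, with GGAA or its reverse complement TTCC in capitals. The Tek window is chr4:94739039-94739288 on the plus strand, and its start site is the same in GENCODE. The Tie1 window is chr4:118489850-118490099 on the minus strand. The GENCODE start of Tie1, 118490061, lies within that window.
Tek: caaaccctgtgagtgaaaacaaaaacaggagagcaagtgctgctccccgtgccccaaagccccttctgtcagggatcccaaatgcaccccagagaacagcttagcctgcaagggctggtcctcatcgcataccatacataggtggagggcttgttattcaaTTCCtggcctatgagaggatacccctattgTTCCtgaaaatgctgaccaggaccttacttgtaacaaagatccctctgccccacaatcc
Tie1: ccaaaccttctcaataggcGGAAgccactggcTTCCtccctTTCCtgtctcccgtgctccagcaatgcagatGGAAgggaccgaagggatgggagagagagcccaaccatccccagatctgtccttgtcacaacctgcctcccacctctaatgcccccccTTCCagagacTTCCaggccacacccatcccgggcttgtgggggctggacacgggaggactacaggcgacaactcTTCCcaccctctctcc

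The Tie1 window held 7 matches to GGAA and the Tek window 2, counting both strands, against a median of 3 over all 32851 promoter windows of that length. At least 1 match was present in 93.4% of those windows, at least 2 in 76.8% and at least 7 in 3.82%. Counted in bases from the RefSeq start, the Tie1 matches at -231 and -218 lie before the GENCODE start. Those at -209, -178, -90, -80 and -16 lie after it, so the Tie1 count depends on the start site taken. The longer motif AGGAAG, which contains GGAA, was found 1 time in Tie1 and 0 times in Tek, and in 29.5% of all windows. Neither window held CCGGAAG, present in 6.91% of all windows, or GGAAGGAA, present in 3.12%. These matches describe letters in short windows and say nothing of binding.

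The libraries held between 26791371 and 36401682 counts. Levels are CPM, each count as a share of the TMM-scaled library total times 1e6. A mean is followed by ± its SD except where SE is written, with n = 5 for libraries labelled knockout and n = 4 for controls. Of the targeted genes, Erg fell to 142.9 ± 10.9 CPM in the libraries labelled knockout, against 311.6 ± 17.8 CPM in controls. Fli1 rose to 147.4 ± 22.5 CPM, against 100.1 ± 8.01 CPM in controls, so its transcript counts go against the label. Counts over a whole gene cannot show whether the deleted exons were lost, for Fli1 or for Erg. Every direction below is therefore relative to a label. All 9 pan-endothelial markers and all 9 sinusoidal markers had reads in every library. By the test described below, 3 and 5 of them were lower and 0 higher, against 14.8% lower and 14.5% higher of all tested genes. Their summed levels were 11587 to 17161 CPM and 12427 to 20613 CPM in the libraries labelled knockout, against 15929 to 17513 CPM and 30735 to 34023 CPM in controls. Replicates 2 and 3 labelled knockout lay apart from the other 3 on the second principal component, and results that rest on them are given with and without them.

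Of the 5 tested genes, the receptor genes Tie1 and Tek fell, Angptl4 rose, and Angpt2 and Ptprb did not pass the threshold. A gene passed when its p from the quasi-likelihood test of edgeR, after Benjamini-Hochberg adjustment across the 14583 genes that were tested, was under 0.05. That test called 29.3% of all tested genes, 14.5% as higher and 14.8% as lower, so 3 calls among 5 genes stand against a wide background of change. The groups did not overlap in CPM for 3 of the 5, against 27% of all tested genes. In sorted bulk cells, fewer cells of a type and less RNA per cell cannot be told apart.

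**Figure D1:**
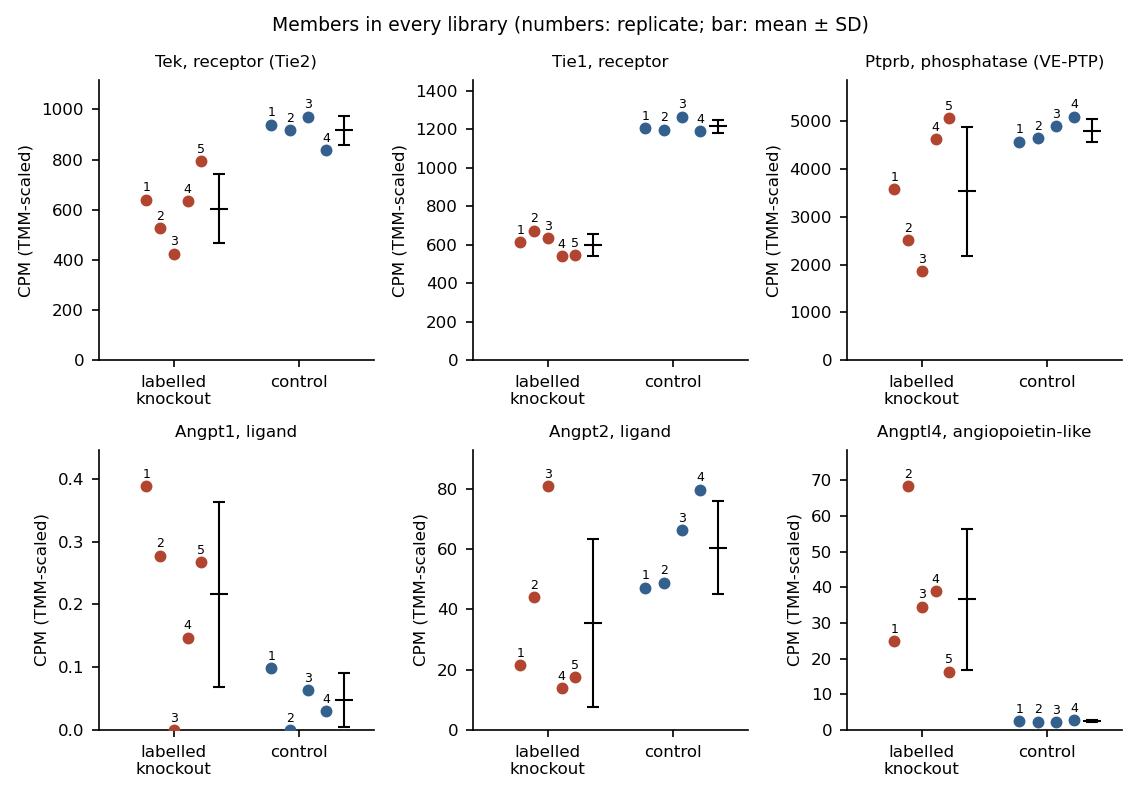
CPM of the 6 genes in each library, with the libraries labelled knockout on the left and the controls on the right of each panel, points carrying their replicate number and bars giving mean ± SD. Tie1, Tek and Angptl4 show no overlap between the groups, while Ptprb and Angpt2 overlap and spread widely in the libraries labelled knockout.

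Tie1 (ENSMUSG00000033191, GRCm38 chromosome 4, 118471191 to 118490061, minus strand) had 615, 672, 632, 539 and 545 CPM in replicates 1 to 5 of the libraries labelled knockout. The controls had 1205, 1198, 1265 and 1191 CPM. The groups lay far apart and each was narrow, the highest library labelled knockout standing well below the lowest control. The mean was 601 ± 57.6 CPM in the libraries labelled knockout and 1215 ± 34.2 CPM in controls, 2.02-fold lower. The log2 fold change was -1.02 ± 0.10 (SE, edgeR adjusted p = 1.13e-04). Under every alternative run, including each left-out library, it stayed between -1.09 and -0.95 and remained called.

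Tek (ENSMUSG00000006386, chromosome 4, 94739289 to 94874976, plus strand) had 640.0, 526, 426, 635 and 794 CPM in replicates 1 to 5 of the libraries labelled knockout. The controls had 939.9, 916, 972 and 837 CPM. Replicate 5 came close to the lowest control, replicate 3 was lowest, and the groups did not overlap. The mean was 604 ± 138 CPM in the libraries labelled knockout and 916 ± 57.6 CPM in controls, 1.52-fold lower. The log2 fold change was -0.60 ± 0.17 (SE, edgeR adjusted p = 0.0218). The call ended without control replicate 1, 2 or 3 (edgeR adjusted p = 0.0556, 0.0544 and 0.0593), the fold change staying between -0.60 and -0.57. Those fits called 21.7%, 20.8% and 22.1% of all tested genes. Without replicates 2 and 3 labelled knockout it was -0.40, a smaller fall that was still called (edgeR adjusted p = 0.0248).

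The receptors therefore fell by different amounts in different libraries. The Tek to Tie1 count ratio was 1.04, 0.782, 0.673, 1.18 and 1.46 in replicates 1 to 5 of the libraries labelled knockout. In controls it was 0.780, 0.765, 0.768 and 0.702. Controls held a tight ratio, whereas the libraries labelled knockout lay on either side of it, 4 above every control, replicate 2 by very little, and replicate 3 below. The mean log2 ratio differed by 0.39 (two-sided exact permutation test over the libraries, p = 0.175, and 0.262 adjusted over 3 ratios). The smallest p this design allows is 0.0159. Per kilobase of exon, Tie1 was the more abundant receptor transcript in 2 of 5 libraries labelled knockout and in 4 of 4 controls.

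**Figure D2:**
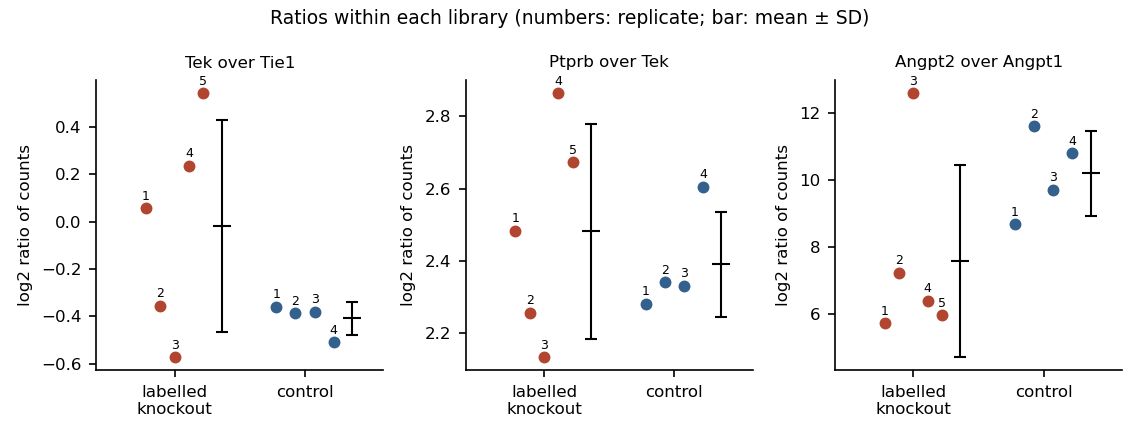
Log2 ratio of counts between pairs of genes within each library, libraries labelled knockout on the left and controls on the right of each panel, with replicate numbers and mean ± SD. The Tek to Tie1 ratio is tight in controls and spread in the libraries labelled knockout, and the Angpt2 to Angpt1 ratio of replicate 3 stands apart because it has no Angpt1 read.

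Ptprb (ENSMUSG00000020154, chromosome 10, 116275523 to 116389535, plus strand) was the most abundant of the 6 transcripts per kilobase of exon in every library. It had 3579.8, 2511, 1867, 4626 and 5063 CPM in replicates 1 to 5 of the libraries labelled knockout, against 4568, 4642, 4889 and 5093 CPM in controls. Replicates 4 and 5 lay within the control range and replicates 1, 2 and 3 below it. The mean was 3529 ± 1356 CPM in the libraries labelled knockout and 4798 ± 240 CPM in controls. The log2 fold change was -0.44 ± 0.27 (SE, edgeR adjusted p = 0.251). Without replicates 2 and 3 it was -0.11, so most of the difference in means came from those libraries. The 9 pan-endothelial markers were compared with Ptprb after their values were seen. Among the libraries labelled knockout, Kdr, Eng, Cdh5, Robo4 and Sox18 were also lowest in replicates 2 and 3. Pecam1 and Egfl7 were highest there, and Esam and Emcn had neither order. For Cdh5 the gap was small, with 1916 and 2086 CPM in replicates 2 and 3 and 2124 CPM in replicate 5. Kdr, the main VEGF receptor, had 2861 and 3160 CPM in replicates 2 and 3, 4919 to 5338 CPM in the other 3 libraries labelled knockout and 4491 to 5174 CPM in controls. Eng, a TGF-beta co-receptor, had 3110.5 and 3042 CPM in replicates 2 and 3, 5715 to 5974 CPM in the other 3 and 4602 to 5151 CPM in controls. Pecam1 (CD31) had 1585 and 1525 CPM in replicates 2 and 3, 1181 to 1444 CPM in the other 3 and 1369 to 1602 CPM in controls.

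The balance of phosphatase to receptor transcript did not separate the groups. The Ptprb to Tek count ratio was 5.59, 4.78, 4.39, 7.28 and 6.38 in the libraries labelled knockout, against 4.86, 5.07, 5.03 and 6.09 in controls. These ranges overlapped, and the mean log2 ratio differed by 0.09 (two-sided exact permutation test, p = 0.603, and 0.603 adjusted over 3 ratios). That difference was -0.00303 without replicate 4 of the libraries labelled knockout.

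Angpt2 (ENSMUSG00000031465, chromosome 8, 18690263 to 18741562, minus strand) had 21.5, 44.0, 80.9, 13.96 and 17.6 CPM in replicates 1 to 5 of the libraries labelled knockout. The controls had 47.3, 48.9, 66.2 and 79.8 CPM. Replicates 1, 4 and 5 lay far below every control, replicate 2 just below the lowest, and replicate 3 above the highest. The mean was 35.6 ± 27.9 CPM in the libraries labelled knockout and 60.5 ± 15.4 CPM in controls. Its log2 fold change was -0.76 ± 0.48 (SE, edgeR adjusted p = 0.265). Replicate 3 decided that value. Without it the log2 fold change was -1.32 (edgeR adjusted p = 0.0246), and without replicates 2 and 3 it was -1.77 (adjusted p = 7.81e-04). Those fits called 27.8% and 29.3% of all tested genes. Replicates 3 and 2 had the highest Angpt2 levels among the libraries labelled knockout. Leaving them out was therefore bound to deepen the fall, and the p-values of those fits do not test it. Over all alternatives the adjusted p for Angpt2 lay between 7.81e-04 and 0.448. Angpt2 lies inside the gene Mcph1 on the opposite strand. Their exons do not overlap, and Mcph1 stood at 10.5 ± 1.52 CPM in the libraries labelled knockout and 12.1 ± 1.30 CPM in controls.

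Among the genes of the hypoxia and FOXO lists, Vegfa, Egln3 and Esm1 were looked at beside Angpt2 after their values were seen. Vegfa, the growth factor that hypoxia induces, had 15.3, 161, 398, 9.98 and 5.51 CPM in replicates 1 to 5 of the libraries labelled knockout, against 38.0 to 44.2 CPM in controls. Egln3, an oxygen-sensing hydroxylase that hypoxia induces, had 18.2, 75.8, 141, 3.20 and 1.503 CPM, against 0.378 to 1.89 CPM in controls. Esm1, a marker of endothelial tip cells, had 75.5, 363, 457, 30.05 and 20.9 CPM, against 119 to 582 CPM in controls. Among the libraries labelled knockout, each of these 3 transcripts was highest in replicate 3, then in replicate 2, as was Angpt2. Control replicate 4 was the highest control for all 4. Egln1, Ccng2 and Cdkn1b of the same lists also had that order among the libraries labelled knockout, but control replicate 4 was not their highest control. The remaining genes of these lists did not follow that order. Adm had 65.0, 93.1, 63.4, 95.96 and 61.4 CPM in replicates 1 to 5 of the libraries labelled knockout, and Epas1, Klf2 and Txnip were lowest in replicate 3. The part of these signals in the Angpt2 result was not tested.

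**Figure D3:**
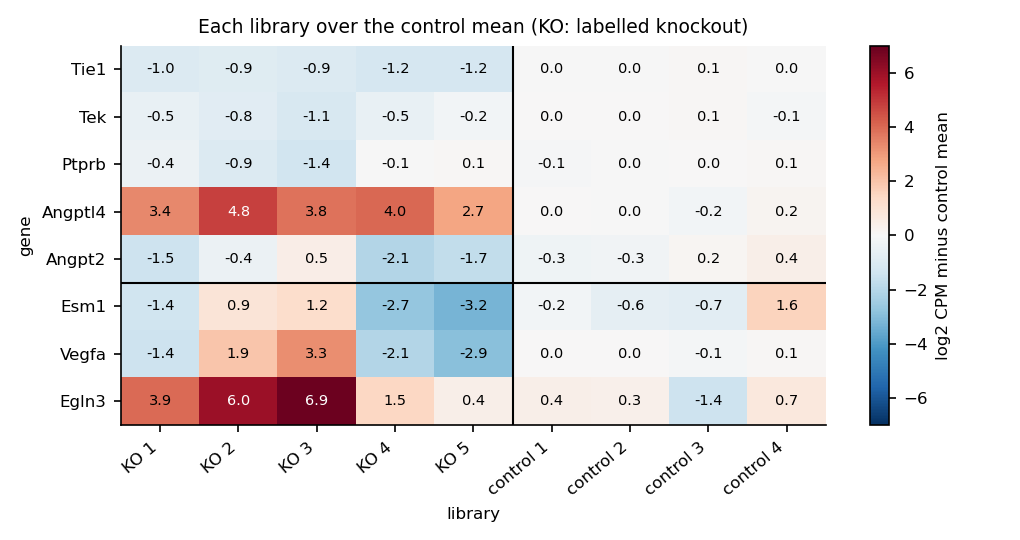
Log2 CPM of each library minus the mean of the controls, for the 5 tested genes (above the line) and 3 hypoxia or tip cell genes (below it), the libraries labelled knockout (KO) left of the controls. Tie1 is evenly low in all 5 libraries labelled knockout. Among these libraries, Tek and Ptprb are lowest in replicates 2 and 3, and Angpt2, Esm1, Vegfa and Egln3 are highest there. Angpt2 in replicate 2 nevertheless lies below every control, and Esm1 is highest of all in control replicate 4.

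Angpt1 (ENSMUSG00000022309, chromosome 15, 42424723 to 42676977, minus strand) was barely detected in sorted endothelium and was not tested. It had 11, 9, 0, 4 and 8 reads in replicates 1 to 5 of the libraries labelled knockout, and 3, 0, 2 and 1 reads in controls. In 4 of 5 libraries labelled knockout there were more reads than in any control, but replicate 3 held none, which allows up to 0.0780 CPM. The 0 reads of control replicate 2 allow up to 0.0937 CPM. Pooled over libraries, the level was 0.205 CPM in the libraries labelled knockout (95% exact Poisson interval 0.140 to 0.289, 32 reads) and 0.0468 CPM in controls (0.0172 to 0.102, 6 reads). The pooled ratio was 4.37 (1.80 to 12.8). These limits cover counting error only. Fitted without a count filter, its log2 fold change was 2.09 ± 0.96 (SE, edgeR adjusted p = 0.188), in a fit that called 13.3% of 27053 genes. The overlapping antisense gene Gm17473, which shares 737 bases of exon with it, had 0 reads in the libraries labelled knockout and 1 in controls.

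Markers of the cells known to make Angpt1 were examined beside it. Their called counts stand against 14.5% higher and 14.8% lower of all tested genes. The 14 stellate cell, pericyte and fibroblast markers summed to 7.18 to 35.7 CPM in the libraries labelled knockout and 8.38 to 17.9 CPM in controls, and 1 of 10 tested was higher and 0 lower. The list was highest in replicates 2 and 3 labelled knockout. Lrat, Acta2, Col1a1 and Ngfr had no read in at least 1 library. The 8 platelet markers summed to 68.0 to 140 CPM in the libraries labelled knockout and 27.01 to 40.2 CPM in controls, with 5 of 7 tested higher and 0 lower. Neutrophil markers, the other blood list with calls, summed to 7.05 to 21.3 CPM and 0.410 to 4.25 CPM in the same order, with 3 of 3 tested higher. Their part in the Angpt1 reads was not tested.

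The ligands stood far apart in level. Angpt2 had 53.0, 150.3, 6225, 84.3 and 62.1 times the reads of Angpt1 in the libraries labelled knockout, with 0.5 added to each count, against 413, 3135, 841 and 1800.3 times in controls. In 4 of 5 libraries labelled knockout the ratio lay below every control, and in replicate 3, with no Angpt1 read, above every control. The mean log2 ratio was 2.62 lower (difference -2.62, two-sided exact permutation test, p = 0.143, and 0.262 adjusted over 3 ratios). Without replicate 3 of the libraries labelled knockout the difference was -3.88 (exact permutation, adjusted p = 0.0429). The Tek to Tie1 difference became 0.53 (exact permutation, adjusted p = 0.0429). Replicate 3 was the only library labelled knockout on the other side of the controls in either ratio. Leaving it out therefore fixed both p-values at the smallest that 4 against 4 libraries allow. Over all alternatives the adjusted p of either ratio lay between 0.0429 and 0.562.

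Angptl4 (ENSMUSG00000002289, chromosome 17, 33773750 to 33781830, minus strand) had 24.98, 68.4, 34.6, 38.9 and 16.4 CPM in replicates 1 to 5 of the libraries labelled knockout. The controls had 2.39, 2.31, 2.11 and 2.78 CPM. The lowest library labelled knockout was several times above the highest control, and replicate 2 was the highest. The mean was 36.7 ± 19.8 CPM in the libraries labelled knockout and 2.40 ± 0.279 CPM in controls, 15.3-fold higher. The log2 fold change was 3.93 ± 0.41 (SE, edgeR adjusted p = 1.72e-04). It stayed between 3.48 and 4.12 under every alternative run and remained called. Without replicates 2 and 3 it was 3.48, so the rise did not rest on them.

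Hepatocytes are a known source of Angptl4. The 10 hepatocyte markers summed to 21.7 to 209 CPM in the libraries labelled knockout and 163 to 368 CPM in controls. Of these 10 markers, 0 were higher and 2 lower, against 14.5% and 14.8% of all tested genes. Alb, the most abundant, had 103, 75.1, 91.1, 158 and 13.5 CPM in replicates 1 to 5 of the libraries labelled knockout. Its order over these libraries was not that of Angptl4, though both were lowest in replicate 5. Controls had 128 to 287 CPM of Alb. The part of hepatocyte RNA in the Angptl4 result was not tested.

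**Figure D4:**
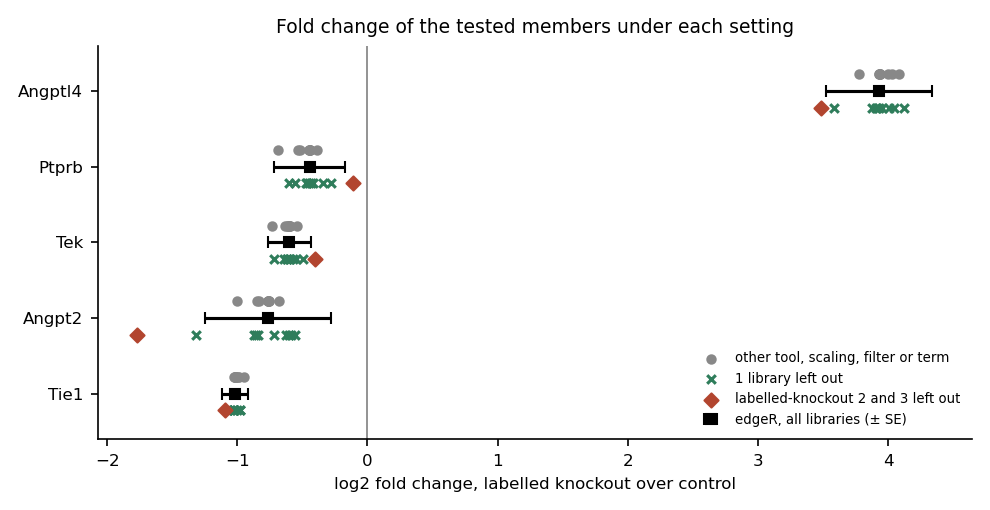
Log2 fold change, labelled knockout over control, of the 5 tested genes: black squares with SE for edgeR on all libraries, grey circles for other tools, scalings, filters or terms, crosses for each left-out library and diamonds for the fit without replicates 2 and 3 labelled knockout. Tie1 and Angptl4 hold their place, while without those replicates Angpt2 lies at -1.77, against -0.76 with them, and Ptprb at -0.11, against -0.44 with them.

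Levels of different genes are compared per kilobase of exon. In the libraries labelled knockout, Ptprb stood at 265 ± 102 CPM per kilobase, Tek at 128 ± 29.3, Tie1 at 122 ± 11.7, Angptl4 at 10.4 ± 5.58, Angpt2 at 9.64 ± 7.56 and Angpt1 at 0.0415 ± 0.0284. In controls, Ptprb stood at 359.9 ± 18.0, Tie1 at 247 ± 6.95, Tek at 194 ± 12.2, Angpt2 at 16.4 ± 4.18, Angptl4 at 0.677 ± 0.0787 and Angpt1 at 0.00916 ± 0.00814. Tek and Tie1 did not differ beyond their spread in the libraries labelled knockout, nor did Angptl4 and Angpt2. Angptl4 exceeded Angpt2 in 3 of 5 libraries labelled knockout and in 0 of 4 controls. Among 14570 tested genes with a length, Ptprb ranked 89 by this level in the libraries labelled knockout and 70 in controls. Tie1 ranked 246 and 113, and Angptl4 ranked 4482 and 11741, in the same order of groups.

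The genes whose profiles over the 9 libraries lay closest were found by the root mean square difference of centred log2 CPM among 8649 genes with a mean of at least 10 CPM. Nearest to Tie1 were Fam222b (0.08), the RhoA regulator gene Ripor1 (0.10) and Plekho1 (0.11). Nearest to Tek were Dele1, D6Wsu163e and Ripply3 (0.09 each). For Ptprb they were the kinesin gene Kifc3 (0.15), the phospholipase receptor gene Pla2r1 (0.15) and the caveola gene Cavin2 (0.17). For Angpt2 they were more distant, Ctnnal1 (0.33), the glutamine transporter gene Slc1a5 and the laminin receptor gene Itga6 (0.37 each). For Angptl4 they were Slc4a8 (0.48), the G protein signalling regulator gene Rgs2 (0.49) and the interleukin 36 receptor gene Il1rl2 (0.56). All libraries share the 2 groups and their scaling, so closeness describes shape and size of change only.

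Around the 6 genes, 10 lists held 112 other genes, of which 103 were tested, 23 were higher and 25 lower. Of all tested genes, 14.5% were higher and 14.8% lower, and each list count below stands against those shares. The median log2 fold change of all tested genes was 0.01. Of the 48 called genes, 30 were called whichever single library was left out. Of the called genes named here, Ptpn2 kept its call in 3 of 9 such fits, Plcg1 in 1, and Egln3 and Txnip in 6 each. Adm kept its call in 4 and Foxc1 in 3, and the other called genes named kept theirs in all 9. Without control replicate 1, for example, 5 Weibel-Palade body genes, 2 adaptor genes and 1 FOXO gene were called lower, against 8, 5 and 3 with all libraries. Without replicates 2 and 3 labelled knockout, the called counts changed by more than 1.5 times for lower adaptor genes (3), lower sheddase or integrin genes (1), hypoxia genes (1 higher, 1 lower) and higher transcription factor genes (2).

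Angiopoietin relatives were scarce. Of 8 genes, 2 were tested and 0 called. Angptl6 had 0.745 ± 0.251 CPM in the libraries labelled knockout and 1.02 ± 0.187 CPM in controls (edgeR adjusted p = 0.291). Angpt4, the remaining Tie2 ligand, had 0 to 0.0617 CPM in the libraries labelled knockout and 0 in controls.

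Adaptors and kinases downstream of Tie2 included 3 higher and 5 lower of 18 tested, with a median log2 fold change of -0.14. The SH2 and SH3 adaptor gene Nck1 fell to 44.7 ± 3.36 CPM in the libraries labelled knockout, against 88.7 ± 4.05 CPM in controls (log2 -0.99 ± 0.07, SE, edgeR adjusted p = 2.99e-05). The adaptor gene Shc1 rose to 168 ± 4.29 CPM, against 98.8 ± 6.53 CPM (0.77 ± 0.07, SE, edgeR adjusted p = 5.86e-05). Pik3r2, a regulatory subunit of PI3 kinase, rose to 32.7 ± 1.11 CPM, against 22.6 ± 2.31 CPM in controls, and the receptor adaptor gene Grb14 fell to 0.216 ± 0.147 CPM, against 1.19 ± 0.272 CPM. The kinase genes Akt1 and Akt2, named after their values were seen, did not pass the threshold. Akt1, for example, had 345 ± 34.1 CPM in the libraries labelled knockout and 347 ± 16.2 CPM in controls.

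FOXO factors and their known targets included 5 higher and 3 lower of 14 tested, with a median of 0.43. Foxo1, which encodes the factor that Tie2 signalling restrains, fell to 89.5 ± 9.03 CPM in the libraries labelled knockout, against 147 ± 12.0 CPM in controls (log2 -0.71 ± 0.09, SE, edgeR adjusted p = 4.74e-04). Foxo4 rose to 40.7 ± 6.38 CPM, against 22.2 ± 1.79 CPM. The targets Ccng2, a cyclin that slows the cell cycle, and Cdkn1b, a cyclin-dependent kinase inhibitor, rose to 69.1 ± 10.5 and 137 ± 17.1 CPM, against 44.7 ± 6.50 and 104 ± 5.20 CPM in controls. Other targets fell. Txnip, named after its values were seen, fell to 1065 ± 391 CPM in the libraries labelled knockout, against 2155 ± 400 CPM in controls.

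Sheddases and angiopoietin-binding integrin subunits included 4 higher and 2 lower of 8 tested, with a median of 0.31. Mmp14, a membrane protease that cleaves Tie2, rose to 963 ± 72.1 CPM in the libraries labelled knockout, against 495 ± 29.7 CPM in controls (log2 0.96 ± 0.10, SE, edgeR adjusted p = 1.36e-04). The integrin subunit genes Itgb3 and Itgb5 rose to 1010 ± 491 and 23.9 ± 6.10 CPM, against 185 ± 40.5 and 6.74 ± 1.79 CPM in controls. Itgb3 pairs with Itga2b on platelets, and Itga2b had 36.9 to 102.7 CPM in the libraries labelled knockout and 18.4 to 33.1 CPM in controls (log2 1.59), while Pf4, a platelet chemokine, differed by log2 3.17. The part of platelet RNA in the Itgb3 result was not tested. Itga5, a fibronectin receptor subunit, fell to 126 ± 15.3 CPM, against 228 ± 27.9 CPM.

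Other tyrosine phosphatases included 2 higher and 2 lower of 10 tested, with a median of 0.13. Ptprg rose to 190 ± 13.6 CPM in the libraries labelled knockout, against 106 ± 8.71 CPM in controls, and Ptpn2 to 28.2 ± 4.07 CPM, against 21.3 ± 2.07 CPM. Ptpn2 was not called without replicates 2 and 3 labelled knockout (log2 0.33, edgeR adjusted p = 0.0797). Ptpre fell to 25.2 ± 5.32 CPM, against 51.3 ± 12.6 CPM, and Ptprm to 117 ± 17.7 CPM, against 175 ± 12.4 CPM. Of 5 partners and substrates of VE-PTP, Jup (plakoglobin) and the phospholipase gene Plcg1 fell and Cdh5, Kdr and Fgd5 did not pass the threshold, with a median of -0.14. Plcg1 had 291 ± 46.0 CPM in the libraries labelled knockout and 379.9 ± 40.8 CPM in controls.

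Genes of the Weibel-Palade body, the organelle that stores Angpt2, included 3 higher and 8 lower of 17 tested, with a median of -0.63. The Rab GTPase genes Rab3b and Rab3d fell to 4.35 ± 2.22 and 23.5 ± 3.55 CPM in the libraries labelled knockout, against 68.9 ± 19.6 and 38.8 ± 3.05 CPM in controls. Cracr2a, whose long form is a Rab GTPase of these granules, rose to 12.6 ± 2.72 CPM, against 5.47 ± 0.786 CPM, and the SNARE gene Vamp8 rose to 49.3 ± 3.38 CPM, against 34.8 ± 1.74 CPM. Vwf, the main cargo, named after its values were seen, had 44.0, 295, 90.3, 37.9 and 59.0 CPM in replicates 1 to 5 of the libraries labelled knockout and 140.2 to 227 CPM in controls. Its log2 fold change was -0.79 ± 0.57 (SE, edgeR adjusted p = 0.321). Replicates 1, 4 and 5 lay below every control for both Vwf and Angpt2. In replicates 2 and 3 the genes ran opposite ways, Vwf above every control in replicate 2 and below every control in replicate 3, and Angpt2 the reverse.

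The lipase system around Angptl4 included 2 higher and 2 lower of 11 tested, with a median of -0.01. Furin, a protease that cleaves Angptl4, rose to 313 ± 14.9 CPM in the libraries labelled knockout, against 161 ± 15.05 CPM in controls (log2 0.96 ± 0.08, SE, edgeR adjusted p = 6.76e-05). Ppard, a lipid-sensing nuclear receptor that induces Angptl4, rose to 103 ± 10.5 CPM, against 59.1 ± 2.66 CPM (0.79 ± 0.08, SE, edgeR adjusted p = 1.77e-04). Endothelial lipase, Lipg, was scarce and fell to 0.178 ± 0.118 CPM, against 1.28 ± 0.637 CPM, and Gpihbp1, which carries lipoprotein lipase, also fell (log2 -2.53). Lpl itself had 19.2 ± 15.4 CPM in the libraries labelled knockout and 9.98 ± 6.93 CPM in controls, not past the threshold.

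Hypoxia regulators included 3 higher and 0 lower of 8 tested, with a median of 0.35. Vhl rose to 23.97 ± 1.90 CPM in the libraries labelled knockout, against 15.9 ± 1.17 CPM in controls. Adm, adrenomedullin, rose to 75.8 ± 17.2 CPM, against 53.4 ± 7.17 CPM, and Egln3 rose to 47.9 ± 60.0 CPM, against 1.30 ± 0.648 CPM, though its groups overlapped. Without replicates 2 and 3 labelled knockout neither was called, Egln3 at a log2 fold change of 2.55, against 5.20 with them (edgeR adjusted p = 0.0598), and Adm at 0.48, against 0.50 with them (edgeR adjusted p = 0.0581). Arnt, the partner of the hypoxia factors, was at 146 ± 6.26 and 130.3 ± 4.45 CPM in the same order and was not past the threshold. Transcription factors known to act on Tie or angiopoietin genes included 1 higher and 1 lower of 10 tested, with a median of 0.02. Foxc1 fell to 6.83 ± 2.83 CPM, against 12.9 ± 1.97 CPM in controls, and Tal1 rose. Ets1, an ETS factor that binds Tie gene promoters, had 1165 ± 110 CPM in the libraries labelled knockout and 1434 ± 87.2 CPM in controls (log2 -0.30 ± 0.11, SE, edgeR adjusted p = 0.0652), and Foxc2 had 3.11 ± 2.89 and 0.543 ± 0.412 CPM in the same order (edgeR adjusted p = 0.0527).

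**Figure D5:**
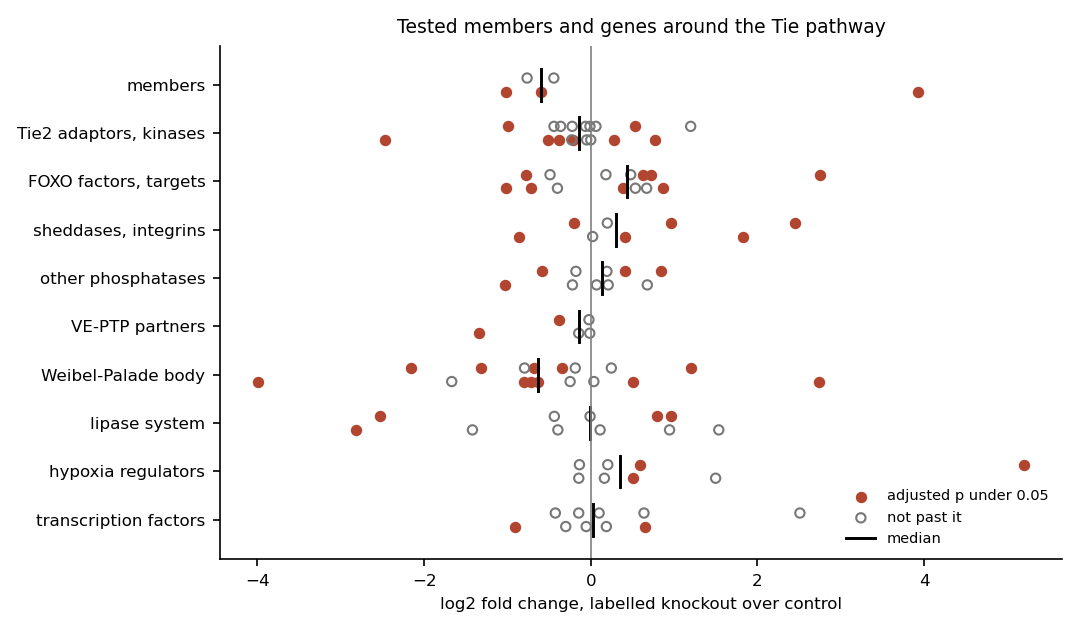
Log2 fold change, labelled knockout over control, of every tested gene of each list, filled where the adjusted p was under 0.05, with the list median as a bar. Most lists hold called genes on either side of 0, except the VE-PTP partners (lower only) and the hypoxia regulators (higher only), and of the 9 lists plotted under the members the Weibel-Palade body list has the lowest median, -0.63.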

How the data were processed

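Per the labels' protocols, RNA was extracted from sorted liver endothelial cells and TruSeq libraries were made, some perhaps with strand information and some without, since both kits are listed. The authors deposited raw counts per Ensembl gene, 1 column per sample, and 0 columns were left unused. The submitters' processing notes name FastQC 0.11.5, STAR 2.7.6a and GRCm38. How reads were counted, with which annotation and with or without strand, is not given here, so reads of overlapping opposite-strand genes may be merged.

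Groups came from sample titles. Nothing says that each library came from its own mouse, so p-values measure the spread between these samples. No library was a copy of another: chi-square over its degrees of freedom was 20.3 to 182 for pairs within a group. Genes passing filterByExpr (minimum count 10, minimum total 15), 14583 of 52636, went into edgeR 4.0.16 in R 4.3.3 (TMM scaling, robust quasi-likelihood test, no covariate). SE is the log2 fold change over the square root of F. At these depths 1 count was worth 0.0260 to 0.0368 CPM, and a count of 0 allows up to 3 counts. Intervals and such limits cover counting error only. Ratios of counts, with 0.5 added, were compared by exact permutation in scipy 1.17.1. Symbols, coordinates and exon lengths came from GENCODE M21. Alternatives were DESeq2 1.42.0, limma-voom (limma 3.58.1), 3 other scalings, 2 other filters, a term for sex, a replicate block and left-out libraries. Sex was read from Xist and Ddx3y and was not balanced between the groups. Controls were 3 males and 1 female, and the libraries labelled knockout 2 males and 3 females.

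The members and lists were chosen with earlier results of these data known. Named genes were the 6 members, Erg and Fli1, up to 4 genes of each list with the smallest p, and for each tested member the 3 nearest profiles. Any other gene named, such as Lpl, Angpt4, Fgd5, Adm in single libraries and the single marker genes, was chosen after its values were seen. Some list genes are not reported here.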

Additional observations from a re-analysis of the deposited data

Results flagged for a closer look

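The log2 ratio of Angpt2 to Angpt1 in replicate 3 of the libraries labelled knockout lay far from the other 4 libraries of its group. The gap to the nearest of them was 0.781 of the group's whole range, above the critical value of 0.710 for 5 samples. That library had 0 Angpt1 reads, so its ratio rests on the 0.5 added to the count, and it had the highest Angpt2 level, 80.9 CPM. It was 1 of 18 groups examined, of which chance flags about 1 in 20.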

How the results depend on the processing

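Tie1 and Angptl4 kept their direction and call under all alternatives, and Ptprb stayed uncalled under all. Leaving out 1 library gave 3086 to 3999 called genes (1495 to 1981 higher, 1591 to 2040 lower), against 4271. The same range was -0.72 to -0.49 for the Tek log2 fold change, -1.32 to -0.56 for Angpt2, -0.61 to -0.28 for Ptprb, -1.06 to -0.98 for Tie1 and 3.59 to 4.12 for Angptl4. For differences in log2 ratio it was -3.88 to -2.16 for Angpt2 over Angpt1, 0.25 to 0.53 for Tek over Tie1 and -0.00303 to 0.18 for Ptprb over Tek, where the reversal came without replicate 4 of the libraries labelled knockout. The Angpt2 log2 fold change became -1.77, and called, without replicates 2 and 3 of that group. Those libraries held the highest Angpt2 levels of the group, so a deeper fall was bound to follow. What set them apart was not tested. Titles of both groups carry numbers 1 to 4, but the numbers did not pair libraries: deviations from the group means correlated between -0.333 and 0.291, and 2 of 8 libraries correlated best with their own number. Fitted as a replicate block, they left 2671 calls (1296 higher, 1375 lower) and changed no call among the members. With libraries exchanged only within a number, the smallest exact p is 0.125. Without a count filter 3604 genes were called. Low depth limits Angpt1, with 32 and 6 reads in the libraries labelled knockout and the controls.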
